A study of Mus musculus with 12 samples.

Results

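The genes described here are 46 enzymes of foreign-compound metabolism, listed by symbol: 23 phase I enzymes, which oxidise, reduce or hydrolyse a compound, and 23 phase II enzymes, which mostly conjugate it. In the olfactory epithelium such enzymes are known above all from sustentacular cells, the glia-like supporting cells at the surface, and from Bowman glands, which secrete the mucus over the olfactory cilia. Cytochromes P450 insert an oxygen atom into a lipophilic compound, flavin-containing monooxygenases oxidise nitrogen and sulfur atoms, and glutathione S-transferases, sulfotransferases and UDP-glucuronosyltransferases attach a polar group that favours clearance. In the nose this chemistry both protects the tissue from inhaled toxicants and breaks down odorants.

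Expression was measured on 12 Affymetrix arrays of microdissected olfactory epithelium from male C57BL/6J mice aged 6 weeks, with 3 arrays in each of 4 groups. The groups were Lip-C OBX, Lip-C sham, Lip-O OBX and Lip-O sham. Lip-C mice received liposomes loaded with clodronate, a bisphosphonate that kills the phagocytes that take it up, and Lip-O mice received empty liposomes by the same routes. Each intranasal dose was 50 µl and each tail vein dose 200 µl. OBX, bilateral removal of the olfactory bulbs, severs the axons of olfactory sensory neurons, and tissue was taken 48 h after OBX or sham surgery. All 4 groups therefore carried liposomes and an operation, and no untreated tissue was among them. The tissue is bulk, so fewer cells of a type and less RNA per cell cannot be told apart. Replicates are titled as biological, and the sources used here do not say if an array held RNA of several mice.

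Of the 46 genes, 42 were tested on a probe set that names them alone, among 13628 genes in all. Cyp2a5 and Cyp2a4, near-identical P450s, share 1 probe set, and Ugt2a1, the olfactory UDP-glucuronosyltransferase, shares its probe set with Ugt2a2. Por, the reductase that feeds electrons to P450s, was not analysed here. Array signals are on a linear scale, and every array had been scaled to a trimmed mean of 500. Signals of different probe sets cannot be set against each other, so levels are compared within a gene only. Averaged over the 12 arrays, the 42 genes spanned signals from 89.9 for Gstm3 to 20880 for Cbr2. All 42 passed the filter on low values, which asked for a signal above the array's 40th percentile, on average 71.7, on at least 3 arrays. Changes are differences of log2(signal + 16), given with their standard errors from a limma model over all genes. A change was called at a Benjamini-Hochberg adjusted p under 0.05 over the 13628 genes.

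Marker transcripts of the supporting cells and glands that do not encode such enzymes were measured on the same arrays. All 9 listed sustentacular transcripts were tested, among them Krt18, a keratin of the supporting cells, whose signal lay between 8881 and 14400 on the 12 arrays. All 11 listed Bowman gland transcripts were tested too, including Sox9, a transcription factor of the glands, with signals of 218.8 to 556.4. Tissue of both kinds was thus present on every array, but the arrays do not show which cell type an enzyme's signal came from.

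Several of the genes lie next to each other in the mouse genome (assembly GRCm38.p6). On chromosome 3, Gstm5, Gstm7, Gstm6, Gstm3, Gstm2 and Gstm1 follow each other with no other protein-coding gene between them. On chromosome 7, Cyp2s1, Cyp2a4, Cyp2g1, Cyp2a5 and Cyp2f2 lie in this order, with 4, 6, 0 and 2 other protein-coding genes between them. Gstt3 and Gstt1 are adjacent on chromosome 10, with Gstt2 beyond 1 further gene.

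The promoters of 4 genes are shown because their signals carry the results below: Cyp1a2 and Ephx1 rose after OBX in mice with either liposome, and Gstm5 and Gstm7 are neighbours that rose after OBX in Lip-O mice. Gstm1, from the same cluster, is shown beside them because its signal was not called in any comparison. Each is 300 bases of RefSeq sequence from GRCm38.p6, from 250 bases before to 50 bases after an annotated start. Capitals mark matches, on either strand, to the xenobiotic response core GCGTG bound by the aryl hydrocarbon receptor, to the antioxidant response core TGACNNNGC bound by Nrf2 with small Maf proteins, and to the nuclear factor I palindrome, TTGGC and GCCAA with 5 bases between them. Cyp1a2 and Ephx1 hold no match to the letters of these 3 motifs in this window.
Cyp1a2 (chr9:57683606-57683905, minus strand): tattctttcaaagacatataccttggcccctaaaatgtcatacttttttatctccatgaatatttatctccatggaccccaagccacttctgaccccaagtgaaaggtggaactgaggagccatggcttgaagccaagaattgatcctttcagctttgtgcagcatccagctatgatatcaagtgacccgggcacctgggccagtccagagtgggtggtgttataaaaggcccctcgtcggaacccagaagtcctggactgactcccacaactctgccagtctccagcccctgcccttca
Ephx1 (chr1:181017520-181017819, minus strand): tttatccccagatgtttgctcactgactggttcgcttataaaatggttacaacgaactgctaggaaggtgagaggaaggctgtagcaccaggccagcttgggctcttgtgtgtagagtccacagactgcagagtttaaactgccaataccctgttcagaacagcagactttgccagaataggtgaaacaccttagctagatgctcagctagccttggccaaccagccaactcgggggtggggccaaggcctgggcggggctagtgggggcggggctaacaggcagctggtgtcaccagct
Gstm5 (chr3:107895604-107895903, plus strand): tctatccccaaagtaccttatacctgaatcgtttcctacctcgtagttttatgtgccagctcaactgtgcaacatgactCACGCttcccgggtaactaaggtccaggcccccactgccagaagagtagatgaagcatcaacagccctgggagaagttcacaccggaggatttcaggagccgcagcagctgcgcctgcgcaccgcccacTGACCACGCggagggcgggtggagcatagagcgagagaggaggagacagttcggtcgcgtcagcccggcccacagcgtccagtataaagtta
Gstm7 (chr3:107931768-107932067, minus strand): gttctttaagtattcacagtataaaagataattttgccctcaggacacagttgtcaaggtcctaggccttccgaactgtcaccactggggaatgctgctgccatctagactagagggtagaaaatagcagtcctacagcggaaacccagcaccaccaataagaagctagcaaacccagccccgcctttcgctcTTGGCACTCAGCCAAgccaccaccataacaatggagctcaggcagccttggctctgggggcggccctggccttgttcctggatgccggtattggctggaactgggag
Gstm1 (chr3:108017769-108018068, minus strand): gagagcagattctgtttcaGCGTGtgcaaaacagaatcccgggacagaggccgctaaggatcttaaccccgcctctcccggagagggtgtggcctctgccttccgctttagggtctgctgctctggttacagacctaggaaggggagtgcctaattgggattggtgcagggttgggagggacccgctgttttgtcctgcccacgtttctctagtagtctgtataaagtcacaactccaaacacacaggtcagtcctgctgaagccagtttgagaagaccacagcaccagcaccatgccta

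In Gstm5 the antioxidant response core begins at -42 from the start and overlaps a xenobiotic response core on the other strand at -38, with a further xenobiotic response core at -171. The printed Gstm7 window holds the nuclear factor I palindrome at -57, and a second annotated start of Gstm7 has an antioxidant response core at -129. The printed Gstm1 window has a xenobiotic response core at -231, and the same site lies at -76 from a second annotated start of Gstm1. Promoters were found for 38 of the 46 genes. The xenobiotic response core occurred in 10 of them (26.3%), against 35.2% of 27025 genes with a promoter, and the antioxidant response core in 5 (13.2%), against 14.0%. The nuclear factor I palindrome was found in Gstm7 alone (2.63% of the 38), against 0.0444% of all genes. These matches describe letters in short windows and were not tested for binding.

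OBX was compared with sham surgery in Lip-O mice, the comparison that asks how the epithelium responds to the loss of its target in mice that received empty liposomes. Among the 42 enzymes, 15 rose and Mgst3 fell, in sum 38.1%, and 26 did not pass. The background was 19.6% of all genes called in either direction, with 10.7% higher and 8.89% lower. The median log2 change of the enzymes was 0.30, against 0.05 for all genes. The genes that rose included both oxidising and conjugating enzymes: 6 of 20 phase I and 9 of 22 phase II genes tested.

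**Figure D1:**
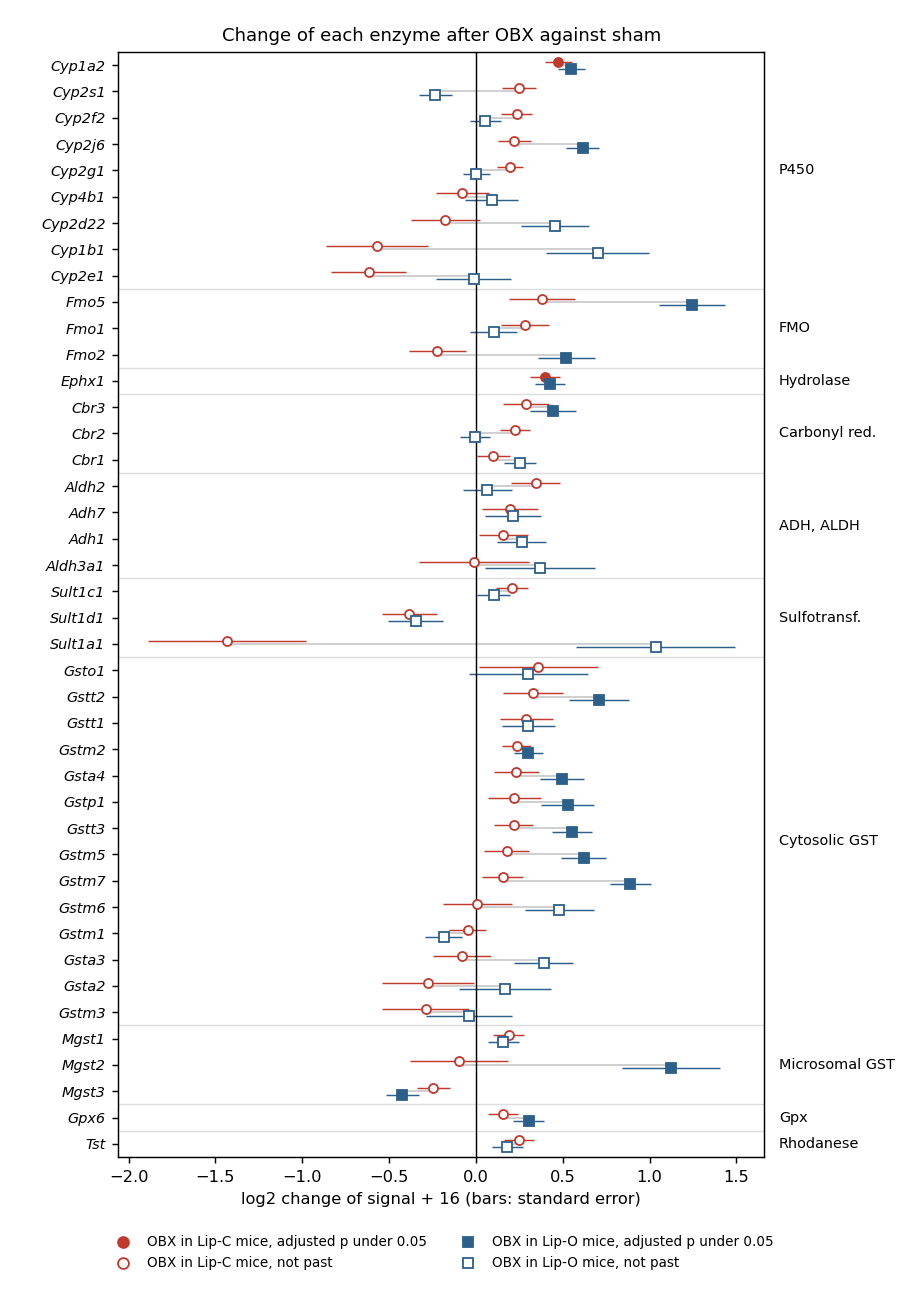
Log2 change of signal + 16 after OBX against sham for each of the 42 enzymes, grouped by enzyme family, in Lip-C mice (red circles) and Lip-O mice (blue squares); filled symbols passed an adjusted p of 0.05 and bars are standard errors. Blue squares lie mostly right of 0, with 15 filled there and 1 filled left of it, while 2 red circles are filled.

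Among the P450s, 2 of 9 rose in Lip-O mice, 22.2% against 10.7% of all genes. Cyp1a2, which activates aromatic amines and metabolises caffeine in liver, had signals of 13558.5, 13107.2 and 13300.5 on Lip-O OBX arrays, against 9310.6, 8428.9 and 9571.1 on Lip-O sham arrays. Its change was 0.55 ± 0.08 (SE, n = 3 each; adjusted p = 0.0019), a 1.46-fold difference. Every Lip-O OBX array lay above every Lip-O sham array, and the same held in Lip-C mice. Cyp2j6, a P450 of a subfamily that epoxidises arachidonic acid, had 2757.3, 2319.4 and 2357.9 on Lip-O OBX arrays and 1768.2, 1547.6 and 1520.3 on Lip-O sham arrays. It rose by 0.61 ± 0.10 (adjusted p = 0.00293), and its groups did not overlap either.

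The P450s best known from olfactory mucosa gave small differences. Probe sets of Cyp2g1, Cyp2f2 and Cyp2a5 with Cyp2a4 averaged 15850, 19770 and 24570 over all arrays. The 99th percentile of the arrays was 8745 to 9479. Whether the arrays record changes in full at such high signals was not tested. Cyp2g1, a P450 largely restricted to olfactory mucosa, had a mean signal of 16210 ± 1164 in Lip-O OBX mice and 16160 ± 931.3 in Lip-O sham mice (SD, n = 3). Its log2 change had a 95% interval from -0.17 to 0.17, and the groups overlapped. Cyp2f2, which bioactivates naphthalene in airway epithelium, changed by 0.05 ± 0.09 (adjusted p = 0.713). The shared probe set of Cyp2a5 and Cyp2a4, coumarin and steroid hydroxylases, changed by 0.04 ± 0.10 among all 28986 probe sets tested, without passing. Cyp2e1, an ethanol-inducible P450, had a change of -0.01 ± 0.21, and Cyp1b1, an estrogen hydroxylase, one of 0.70 ± 0.29 (adjusted p = 0.121). Cyp4b1, a lung P450 that acts on fatty acids, changed by 0.09 ± 0.15, Cyp2d22, a mouse P450 of the drug-metabolising 2D subfamily, by 0.46 ± 0.20 (adjusted p = 0.13), and Cyp2s1 by -0.23 ± 0.10 (adjusted p = 0.119).

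Of the 3 flavin-containing monooxygenases, 2 rose in Lip-O mice, against 10.7% of all genes. Fmo5 had the largest change of the 20 phase I genes tested. Fmo5, whose human form acts as a Baeyer-Villiger monooxygenase, had signals of 2589.1, 2233.9 and 1979.8 on Lip-O OBX arrays, against 874.6, 955.7 and 998.2 on Lip-O sham arrays. It rose by 1.25 ± 0.19 (adjusted p = 0.00273), or 2.37-fold, with no overlap between the groups. Fmo2, the lung form of the family, had 3715, 2424.7 and 2891.4 on Lip-O OBX arrays and 2182.5, 1936.6 and 2070 on Lip-O sham arrays, a rise of 0.52 ± 0.16 (adjusted p = 0.0464). Fmo1, its chromosomal neighbour, changed by 0.10 ± 0.14 and did not pass.

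Ephx1, the microsomal epoxide hydrolase that converts reactive epoxides to diols, had 11398.7, 10171.1 and 10131.9 on Lip-O OBX arrays and 8014.1, 7168.8 and 8392.4 on Lip-O sham arrays. It rose by 0.43 ± 0.09 (adjusted p = 0.00835), and no array of 1 group reached into the other. Of the 3 carbonyl reductases, Cbr3 rose by 0.44 ± 0.13 (adjusted p = 0.0384). Its neighbour Cbr1 changed by 0.25 ± 0.09 (adjusted p = 0.0828) and Cbr2, known as the lung form, by -0.01 ± 0.09 (adjusted p = 0.973). None of the 4 alcohol and aldehyde dehydrogenases passed: their changes ran from 0.07 for Aldh2, which oxidises acetaldehyde in mitochondria, to 0.37 for Aldh3a1, which oxidises aromatic and lipid aldehydes. Between them lay the alcohol dehydrogenases Adh7 (0.21 ± 0.16), which also oxidises retinol, and Adh1 (0.26 ± 0.14).

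Of the 14 cytosolic glutathione S-transferases, which conjugate electrophiles, 7 rose in Lip-O mice (50%, against 10.7% of all genes) and none fell. The calls of Gsta4, Gstm2, Gstp1 and Gstt2 were each lost in some fits that left out a single array. Gstm5 had signals of 18696, 15281.3 and 19015.8 on Lip-O OBX arrays, against 13578.9, 10846.2 and 10134.2 on Lip-O sham arrays, a rise of 0.62 ± 0.13 (adjusted p = 0.00958). Gstm7, next to it on chromosome 3, had 740.3, 622.5 and 601.8 on Lip-O OBX arrays and 378.7, 336 and 322.4 on Lip-O sham arrays. It rose by 0.89 ± 0.12 (adjusted p = 0.00154), or 1.85-fold, the largest change among the 6 mu class genes. These were separate from the sham arrays without overlap, but a second, dimmer probe set of Gstm7 had means of 103.8 in Lip-O OBX mice and 125.4 in Lip-O sham mice.

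The other 4 mu class genes had smaller changes, of which 1 passed. Gstm2 rose by 0.30 ± 0.08 (adjusted p = 0.0289). Gstm1 had 12036.2, 9716.6 and 12387.7 on Lip-O OBX arrays and 12840.8, 11997.2 and 13815 on Lip-O sham arrays, a change of -0.18 ± 0.11 (adjusted p = 0.249). Gstm6 changed by 0.48 ± 0.20 (adjusted p = 0.115) and Gstm3 by -0.04 ± 0.25. Near-identical mu class sequences can share probe signal, so the values of single members carry that uncertainty.

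The theta class, whose members act on small halogenated compounds, rose in part. Gstt3 had 2238, 2084.4 and 2446 on Lip-O OBX arrays and 1417.2, 1542.3 and 1634.7 on Lip-O sham arrays, a rise of 0.55 ± 0.11 (adjusted p = 0.00877), and Gstt2 rose by 0.71 ± 0.17 (adjusted p = 0.0185). Gstt1, between them, changed by 0.30 ± 0.15 (adjusted p = 0.191). Gstp1, the pi class enzyme, rose by 0.53 ± 0.15 (adjusted p = 0.0351), and Gsta4, which conjugates the lipid peroxidation product 4-hydroxynonenal, by 0.50 ± 0.13 (adjusted p = 0.0232). The alpha class genes Gsta3 and Gsta2 changed by 0.39 ± 0.17 and 0.17 ± 0.27 and did not pass. A further probe set names Gsta2 together with Gsta1 and Gm3776 and was not used for the gene.

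The microsomal transferases went in both directions. Mgst2, a membrane enzyme that can also make leukotriene C4, had 2220.9, 1813.2 and 3343 on Lip-O OBX arrays and 1541.2, 964.9 and 848.9 on Lip-O sham arrays, a rise of 1.13 ± 0.28 (adjusted p = 0.0204). Mgst3 had 7812.9, 8238.1 and 8940.9 on Lip-O OBX arrays and 10764.8, 10899.7 and 11839.8 on Lip-O sham arrays. It fell by 0.42 on the log2 scale (SE 0.10, adjusted p = 0.0134), the single enzyme called lower in Lip-O mice. Mgst1, an abundant membrane transferase of liver, changed by 0.16 ± 0.09 (adjusted p = 0.24). Gpx6, a glutathione peroxidase of the olfactory epithelium, rose by 0.30 ± 0.09 (adjusted p = 0.0337), and Tst, the mitochondrial rhodanese that detoxifies cyanide, changed by 0.18 ± 0.09 (adjusted p = 0.177).

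**Figure D2:**
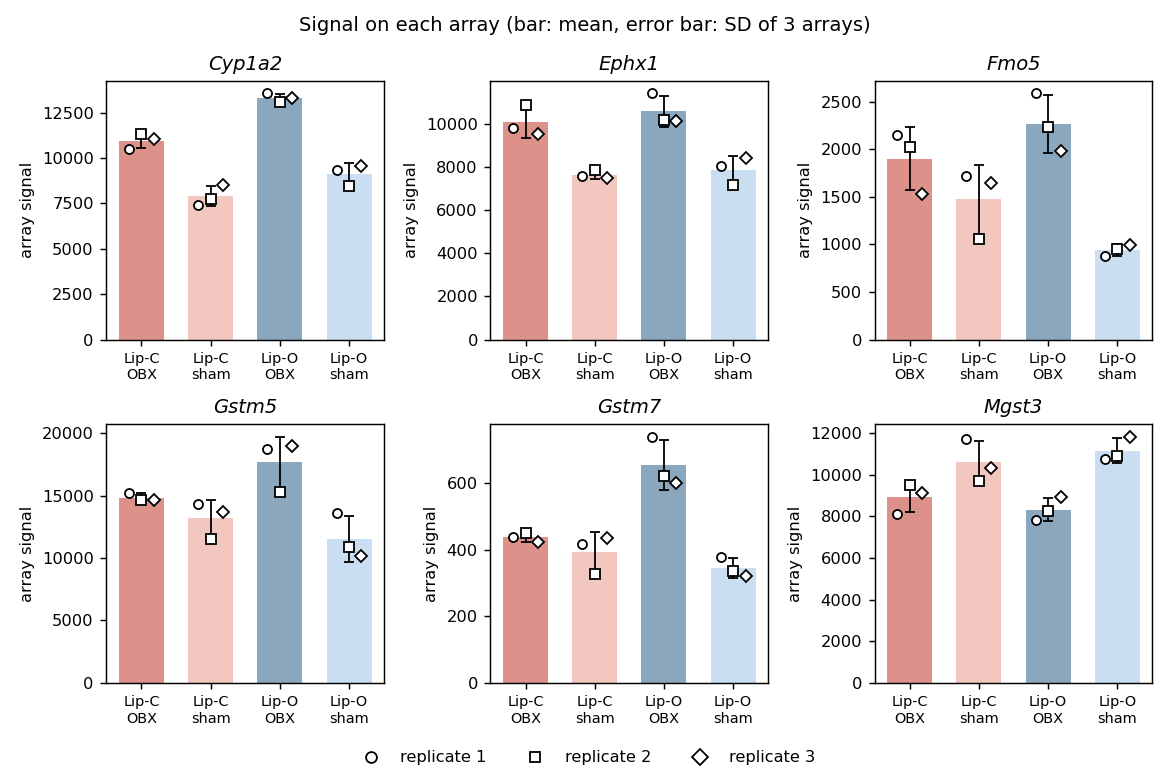
Array signal, on axes that start at 0, of Cyp1a2, Ephx1, Fmo5, Gstm5, Gstm7 and Mgst3 in the 4 groups; bars are means, error bars the SD of 3 arrays and symbols the replicates. Cyp1a2, Ephx1 and Gstm5 are higher on all 6 OBX arrays than on all 6 sham arrays, Mgst3 is lower on all 6, and Fmo5 and Gstm7 separate fully from sham only in Lip-O mice.

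Among the 3 sulfotransferases none passed in Lip-O mice. Sult1c1, a form known from mouse olfactory tissue, changed by 0.10 ± 0.09 and Sult1d1, which sulfates catecholamines in mouse, by -0.35 ± 0.16 (adjusted p = 0.154). Sult1a1, the phenol sulfotransferase, had 1734.4, 526.6 and 1358.9 on Lip-O OBX arrays and 984.3, 436.8 and 318.5 on Lip-O sham arrays, and the groups overlapped. The shared probe set of Ugt2a2 and Ugt2a1 changed by 0.02 ± 0.08.

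Which arrays were in the fit mattered for the smaller changes in Lip-O mice. When each of the 12 arrays was left out in turn, 7 of the 16 calls passed every time: Cyp1a2, Cyp2j6, Ephx1, Fmo5, Gstm5, Gstm7 and Gstt3. The count of enzymes called fell to 7 without Lip-O OBX replicate 1, to 8 without Lip-O sham replicate 2 and to 8 without Lip-O sham replicate 3. The share of all genes called fell in the same fits, to 10.3%, 13% and 11.3%. With probe sets averaged per gene, 3 of the enzymes were no longer called: Gstm7 changed by 0.35 (adjusted p = 0.0754), Fmo2 by 0.39 (adjusted p = 0.0644) and Mgst3 by -0.52 (adjusted p = 0.0721). The 5 probe sets of Fmo2 had changes from -0.06 to 0.84.

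Transcripts of other tissues and cells moved with the same comparison. Transcripts of 16 liver-made plasma proteins summed to 2096 to 2354 on Lip-C OBX arrays, 1984 to 2298 on Lip-C sham arrays, 4576, 5681 and 2624 on Lip-O OBX arrays, and 1629 to 1839 on Lip-O sham arrays. Apoc1 alone had 1433.5 to 1739.2 on the Lip-C arrays, most of each of those sums. It had 2433.4, 1870.4 and 1585.3 on Lip-O OBX arrays and 968.9 to 1197.2 on Lip-O sham arrays. Of 8 tested, 5 rose in Lip-O mice, 62.5% against 10.7% of all genes. Alb, serum albumin, had signals of 526.6, 1184.3 and 151.3 on Lip-O OBX arrays, against 52.2 or less elsewhere. Liver is also rich in many of the enzymes described here, and the part of these transcripts in the result was not tested. Replicate 2 had the highest plasma protein sum of the 3 Lip-O OBX arrays. Of the 15 enzymes called higher, 12 had their lowest Lip-O OBX signal on it and none its highest. Replicate 1, with the next highest sum, was the highest array for 8 of the 15, and replicate 3, with the lowest sum, for 7. Which source these signals had was not tested. Cyp2e1, plentiful in liver, had 1452.6, 1321.1 and 1246.6 on Lip-O OBX arrays against 1232.6, 1397.2 and 1429.9 on Lip-O sham arrays. With neither replicate 1 nor replicate 2 in the fit, which leaves 1 Lip-O OBX array whose spread is taken from the other groups, no enzyme was called and the background fell to 1.66%. All 15 changes remained above 0 there, with a median of 0.62. The 15 genes had been chosen in a fit that held this same array and the same sham arrays. Their sign was thus largely set in advance and is no separate support. The remaining array also had a plasma protein sum above those of the Lip-O sham arrays.

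Cell type markers were compared in the same way. Of all genes, 10.3% rose and 8.86% fell after OBX in Lip-C mice, and 10.7% rose and 8.89% fell in Lip-O mice. Of 10 mature neuron transcripts tested, 5 fell after OBX in Lip-C mice and 8 in Lip-O mice, and their sums ran from 69450 to 85490 on Lip-C OBX arrays, 104100 to 110400 on Lip-C sham arrays, 48600 to 78970 on Lip-O OBX arrays and 97260 to 111800 on Lip-O sham arrays. Omp, the olfactory marker protein of mature neurons, had a change of -0.34 in Lip-C mice (adjusted p = 0.176) and fell by 1.01 in Lip-O mice (adjusted p = 0.00399). Of the 9 non-enzyme sustentacular transcripts 3 rose after OBX in Lip-C mice and 3 in Lip-O mice, and of the 11 gland transcripts 2 rose in Lip-C mice and 4 in Lip-O mice. Krt18 changed by 0.05 in Lip-C mice (adjusted p = 0.778) and by 0.34 in Lip-O mice (adjusted p = 0.0627), and Sox9 rose by 0.76 in Lip-C mice (adjusted p = 0.0152) and by 0.59 in Lip-O mice (adjusted p = 0.0325). Sustentacular sums were 66100 to 73380 on Lip-C OBX arrays against 60740 to 62790 on Lip-C sham arrays. They were 68970 to 74230 on Lip-O OBX arrays against 58800 to 61690 on Lip-O sham arrays. Gland sums were 96840 to 114400 on Lip-C OBX arrays against 85500 to 89860 on Lip-C sham arrays. In Lip-O mice they were 93290 to 114000 after OBX against 84490 to 93230 after sham surgery. Of 5 horizontal basal cell transcripts 4 rose in Lip-C mice and 3 in Lip-O mice. Of 6 fibroblast transcripts 4 rose in Lip-C mice and 0 in Lip-O mice, with sums of 32950 to 54180 on Lip-C OBX arrays, 19400 to 26080 on Lip-C sham arrays, 29390 to 51640 on Lip-O OBX arrays and 30490 to 55890 on Lip-O sham arrays. Of 7 transcripts of ciliated respiratory cells 2 rose in Lip-C mice and 3 fell in Lip-O mice, and of 6 endothelial transcripts 1 rose in Lip-C mice and 2 in Lip-O mice. The part of these cells in the enzyme values was not tested. On an array scaled to a fixed mean, a smaller neuronal share and more transcript per supporting cell cannot be told apart.

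**Figure D3:**
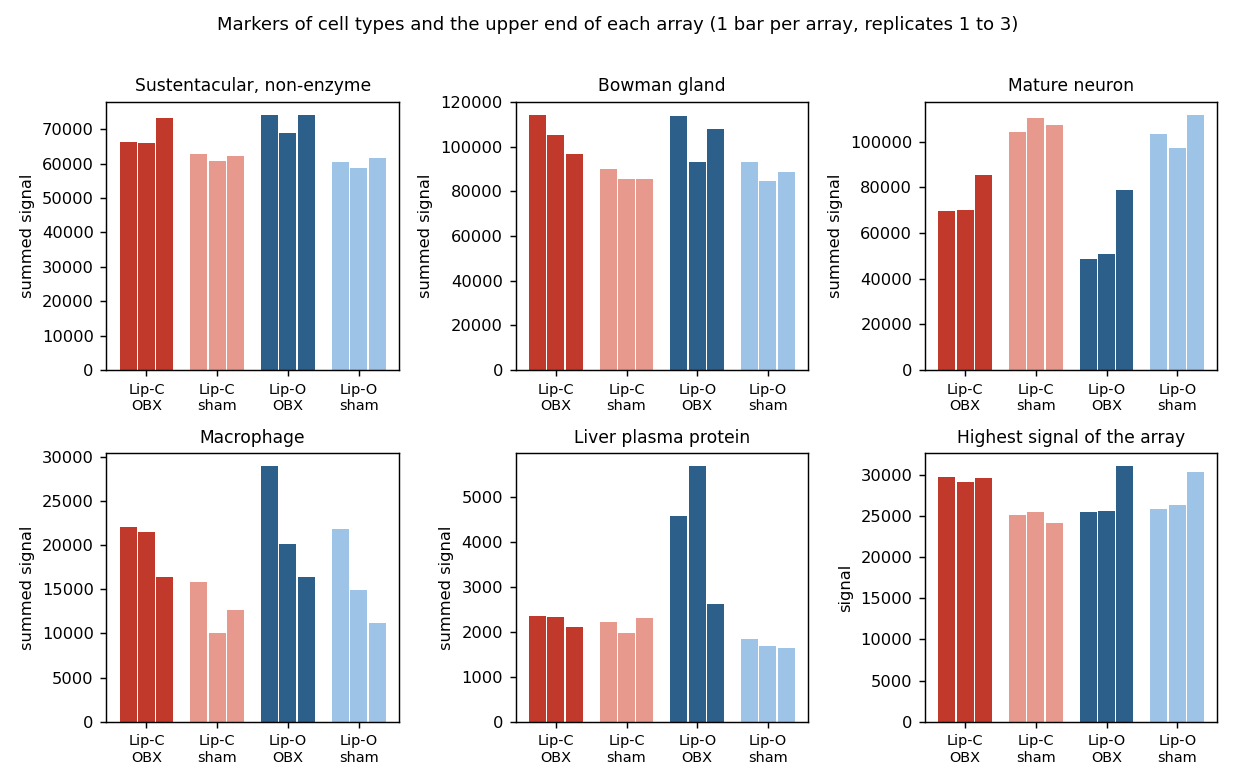
Summed signal of marker lists for 5 tissues or cell types, and each array's highest signal, with 1 bar per array on axes that start at 0. Plasma protein transcripts are high on Lip-O OBX replicates 1 and 2, neuronal transcripts are lowest on the same arrays, and the highest signal is 29062 or more on the Lip-C OBX arrays and 25491 or less on the Lip-C sham arrays.

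In Lip-C mice the same surgery gave 2 calls among the 42 enzymes, both higher: 4.76%, against 19.2% of all genes in either direction, with 10.3% higher and 8.86% lower. The median log2 change was 0.19, against 0.04 for all genes. An unadjusted limma p under 0.05 was reached by 15 enzymes (35.7%) and by 35.3% of all genes, so at that threshold the shares were alike. Cyp1a2 had 10500.2, 11330.7 and 11050.9 on Lip-C OBX arrays and 7425.5, 7763.4 and 8497.1 on Lip-C sham arrays, a rise of 0.47 ± 0.08 (adjusted p = 0.0055). Ephx1 had 9779.3, 10879.6 and 9529.8 on Lip-C OBX arrays and 7570.5, 7859 and 7463.2 on Lip-C sham arrays, a rise of 0.40 ± 0.09 (adjusted p = 0.0145). Both genes thus rose by similar amounts with either liposome, without overlap between OBX and sham arrays. Without Lip-C OBX replicate 2 the Ephx1 call was lost (adjusted p = 0.0574), which left 1 enzyme called. The count rose to 4 without Lip-C OBX replicate 3 and to 4 without Lip-C sham replicate 1. With the replicate number as a block it was 4 as well, against 22% of all genes, with Sult1a1 (adjusted p = 0.0406) and Sult1d1 (adjusted p = 0.0483) called lower.

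In Lip-C mice, the 15 enzymes called higher in Lip-O mice changed by -0.22 to 0.47 after OBX, with a median of 0.22, and 13 of the 15 were above 0. In Lip-O mice their changes ran from 0.30 to 1.25, with a median of 0.55. Fmo5, for example, had 2150.1, 2028.1 and 1526.1 on Lip-C OBX arrays and 1724.8, 1060.6 and 1643.2 on Lip-C sham arrays, a change of 0.38 ± 0.19 (adjusted p = 0.18). Gstm7 changed by 0.15 ± 0.12, Mgst2 by -0.10 ± 0.28 and Fmo2 by -0.22 ± 0.16, and none of these passed. A smaller change in the second group is partly built into a choice of genes by their change in the first.

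The difference itself was tested as the interaction, OBX against sham in Lip-C mice minus OBX against sham in Lip-O mice. Of the 42 enzymes 0 passed the limma test, as did 0 of all 13628 genes (0%). At an unadjusted p under 0.05 there were 10 enzymes (23.8%) and 2405 genes in all (17.6%), and 9 of the 10 enzymes had a negative value. Without Lip-O OBX replicate 2, 155 genes passed the interaction test (1.14%). Gstm7 had the lowest adjusted p, with -0.73 ± 0.17 (adjusted p = 0.0929). Fmo5 had -0.87 ± 0.27, Fmo2 -0.74 ± 0.23 and Mgst2 -1.22 ± 0.40, with adjusted p of 0.15, 0.15 and 0.163. These values do not show that the response of any 1 enzyme to OBX differed between Lip-C and Lip-O mice.

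Sult1a1 had the widest spread within groups of the 42 enzymes, with a coefficient of variation of 47.5%. Its signals were 312.1, 429.1 and 337.6 on Lip-C OBX arrays, 1104.1, 755.4 and 1162.3 on Lip-C sham arrays, 1734.4, 526.6 and 1358.9 on Lip-O OBX arrays and 984.3, 436.8 and 318.5 on Lip-O sham arrays. The Lip-C OBX arrays lay below every Lip-C sham and every Lip-O OBX array. The change after OBX was -1.43 ± 0.46 in Lip-C mice (adjusted p = 0.0508) and 1.04 ± 0.46 in Lip-O mice (adjusted p = 0.138), and the interaction was -2.47 ± 0.65 (adjusted p = 0.113). Its interaction was called in the fit without Lip-O OBX replicate 2, at -2.98 (adjusted p = 0.0443), where 1.14% of all genes were called.

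Averaged over both liposomes, OBX raised 14 enzymes and lowered 2, in sum 38.1% against a background of 32.7% (19.2% higher and 13.5% lower). Cyp1a2, Cyp2j6, Ephx1, Gstm5 and Gstt3, 5 genes in all, lay higher on all 6 OBX arrays than on all 6 sham arrays, 11.9% of the 42 against 5.53% of all genes, and Mgst3 lay lower on all 6, 2.38% against 6.38%. The largest average change was that of Fmo5 (0.81 ± 0.13, adjusted p = 0.00172). Tst rose by 0.22 ± 0.06 (adjusted p = 0.024) and Sult1d1 fell by 0.37 (SE 0.11, adjusted p = 0.0306), although neither passed within a liposome. Without each array in turn, the Sult1d1 call was lost in 8 of 12 fits. Aldh2 was not called, and its 5 probe sets disagreed for this average, from -0.34 to 0.31.

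Lip-C was compared with Lip-O to ask what the depleting liposomes themselves did to these enzymes. After sham surgery 0 of 42 passed, against 2.1% of all genes (1.28% higher and 0.814% lower), and the lowest adjusted p among the enzymes was 0.0958. That background of 286 genes depended on single arrays, with a count of 17 (0.125%) without Lip-C sham replicate 3, 40 without Lip-C sham replicate 2, 96 without Lip-O sham replicate 1, 24 without Lip-O sham replicate 2 and 19 without Lip-O sham replicate 3. At an unadjusted p under 0.05 there were 9 enzymes (21.4%), of which 4 were higher and 5 lower in Lip-C mice, close to the 21.9% of all genes. Fmo5 had 1724.8, 1060.6 and 1643.2 on Lip-C sham arrays against 874.6, 955.7 and 998.2 on Lip-O sham arrays, a difference of 0.61 ± 0.19 (adjusted p = 0.105), with no overlap. Gstm1 had a difference of -0.35 ± 0.11 (adjusted p = 0.0958) and Mgst2 one of 0.86 ± 0.28 (adjusted p = 0.12). The 95% intervals show what size remains possible: for Fmo5 they ran from 0.19 to 1.03.

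**Figure D4:**
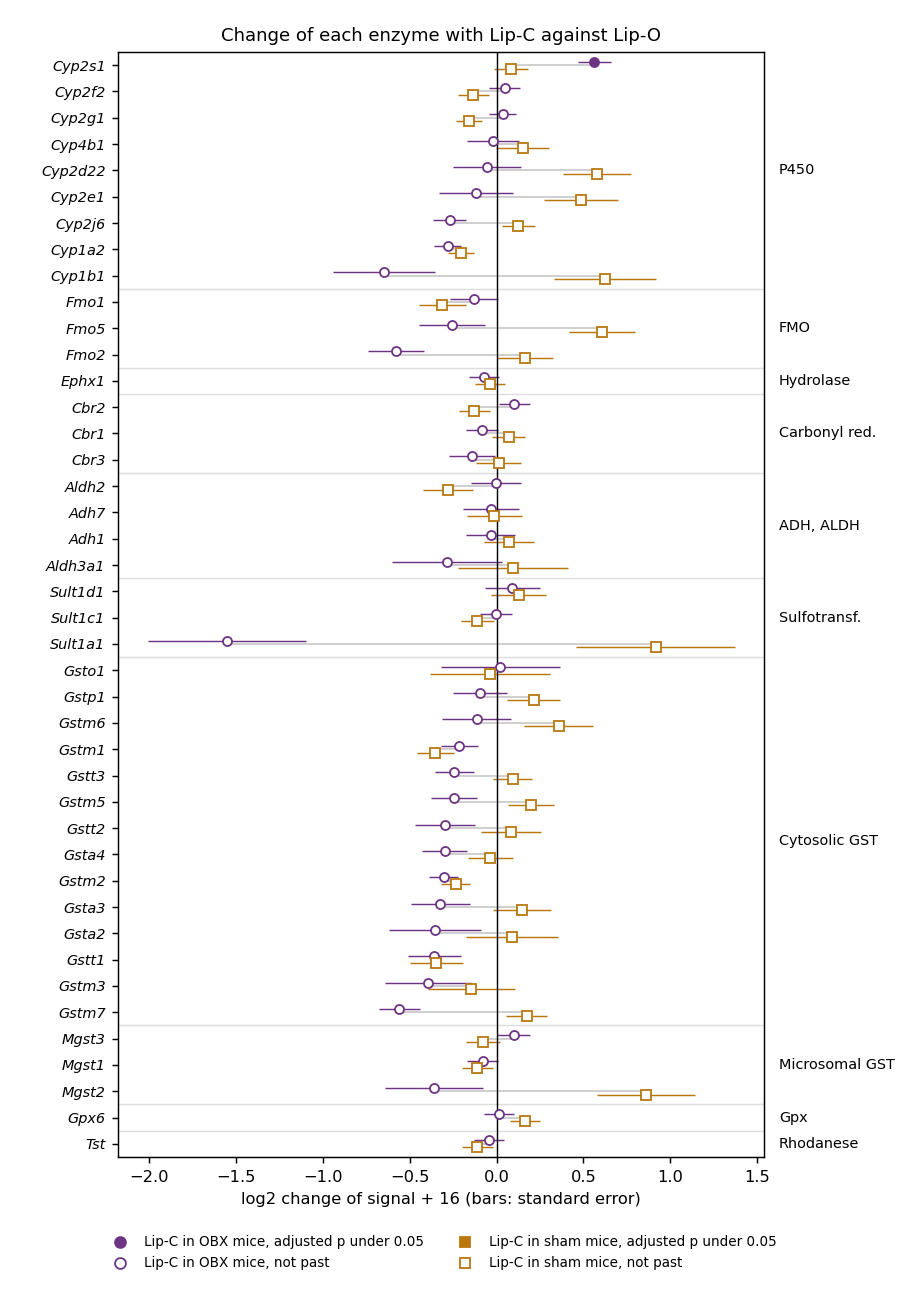
Log2 change of signal + 16 with Lip-C against Lip-O for each of the 42 enzymes, grouped by family, in OBX mice (purple circles) and sham mice (brown squares); filled symbols passed an adjusted p of 0.05 and bars are standard errors. Cyp2s1 in OBX mice is the single filled symbol, and 34 of the 42 purple circles lie left of 0.

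After OBX, Cyp2s1 was the single enzyme called between Lip-C and Lip-O mice, 1 of 42 or 2.38%, against 0.345% of all genes in either direction, 0.125% higher and 0.22% lower. Cyp2s1, an extrahepatic P450 of epithelia, had 958.2, 850 and 803.4 on Lip-C OBX arrays and 637.5, 606.4 and 511 on Lip-O OBX arrays, a difference of 0.56 ± 0.10 (adjusted p = 0.0421). On sham arrays it had 707.4, 733.3 and 745.8 in Lip-C mice and 663.9, 668.1 and 732.3 in Lip-O mice, which overlap. The call sat close to the threshold and was lost in all 12 fits that left out an array and with the replicate number as a block. Averaged over both operations Cyp2s1 was 0.32 ± 0.07 higher with Lip-C (adjusted p = 0.0478), 1 call of 42 against 1.59% of all genes (0.77% higher), and that call was lost without each array in turn as well.

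The other enzymes lay mostly lower in Lip-C OBX than in Lip-O OBX mice without passing: 34 of 42 differences were below 0, with a median of -0.12, against 0.01 for all genes. Among the cytosolic transferases 13 of 14 were below 0. Gstm7 had 438.5, 450.5 and 422 on Lip-C OBX arrays and 740.3, 622.5 and 601.8 on Lip-O OBX arrays, a difference of -0.56 ± 0.12 (adjusted p = 0.0964), with no overlap. Cyp1a2 had 10960 ± 422.5 in Lip-C OBX mice and 13320 ± 226.4 in Lip-O OBX mice (SD, n = 3), a difference of -0.28 ± 0.08 (adjusted p = 0.163). Gstm3 had mean signals of 71.2 in Lip-C OBX mice, under the 40th percentile, and 95.9 in Lip-O OBX mice. The Lip-O OBX arrays are those with the plasma protein transcripts described above. This comparison and OBX against sham in Lip-O mice use the same Lip-O OBX arrays, so their values are not independent.

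The macrophage transcripts that Lip-C was meant to reduce were measured beside these comparisons. Sums over 17 of them were 16420 to 22010 on Lip-C OBX arrays, 10090 to 15870 on Lip-C sham arrays, 16430 to 28930 on Lip-O OBX arrays and 11200 to 21820 on Lip-O sham arrays. In these sums, Lip-C groups overlapped Lip-O groups in both operations. Lyz2 was the largest part of the sum on every array, with signals from 4037.6 to 10892.2. Cd14 had 4955.1 on Lip-O sham replicate 1, against 793.2 and 563.4 on the other Lip-O sham arrays. The overlap of the sums thus leans on these transcripts. With Lip-C, 0 of 17 transcripts fell in OBX mice, against 0.22% of all genes, and 2 in sham mice, against 0.814%. Most lay lower with Lip-C, 11 of 17 in OBX mice (median log2 change -0.22) and 14 of 17 in sham mice (median -0.25). The 2 that fell in sham mice, named after their values were seen, were Csf1r and Aif1. Csf1r, a growth factor receptor of macrophages, had 1474.5, 1209.8 and 1309.8 on Lip-C sham arrays and 2230.6, 2589.3 and 2328.5 on Lip-O sham arrays, a difference of -0.83 ± 0.18 (adjusted p = 0.0426), with no overlap. Aif1, a calcium-binding protein of macrophages, had a difference of -0.90 ± 0.20 (adjusted p = 0.047). Cd68, a lysosomal protein of macrophages, changed by 0.05 with Lip-C in OBX mice (adjusted p = 0.952) and by -0.24 in sham mice (adjusted p = 0.619). After OBX Cd68 rose by 1.46 in Lip-C mice (adjusted p = 0.0069) and by 1.16 in Lip-O mice (adjusted p = 0.0115).

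**Figure D5:**
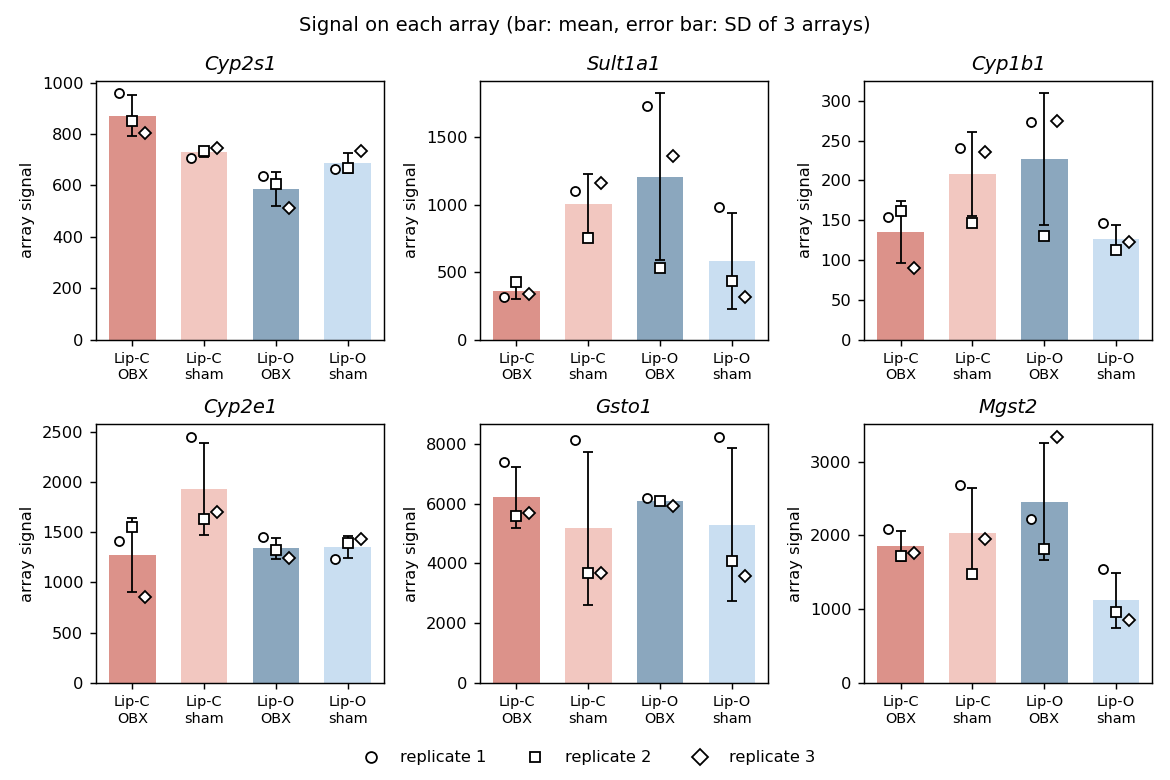
Array signal, on axes that start at 0, of Cyp2s1, Sult1a1, Cyp1b1, Cyp2e1, Gsto1 and Mgst2 in the 4 groups; bars are means, error bars the SD of 3 arrays and symbols the replicates. Cyp2s1 is highest on the Lip-C OBX arrays and lowest on the Lip-O OBX arrays, Sult1a1 is low on all Lip-C OBX arrays, and Gsto1 is high on replicate 1 of both sham groups.

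Gsto1 and Aldh3a1 varied widely within the sham groups. Gsto1, an omega class transferase with thioltransferase activity, had 7400.2, 5590.3 and 5686.3 on Lip-C OBX arrays, 8156.2, 3688.3 and 3689.2 on Lip-C sham arrays, 6213.7, 6108.9 and 5941 on Lip-O OBX arrays and 8259.1, 4080.9 and 3565.6 on Lip-O sham arrays. Replicate 1 was its highest array in all 4 groups and stood apart in both sham groups. In the sham groups Aldh3a1 was likewise highest on replicate 1, with 3272.5, 1578 and 1368.5 on Lip-C sham arrays and 2739.5, 1565.5 and 1351.2 on Lip-O sham arrays. Neither gene passed in any of the 7 comparisons. The mean signals of both genes in sham mice therefore rest on 1 array in each group. Cyp1b1 spanned 90 to 161.6 on Lip-C OBX arrays and 130.5 to 274.8 on Lip-O OBX arrays. Cyp2e1 had 2456, 1633.4 and 1703.4 on Lip-C sham arrays, all above its 1411.5, 1551.5 and 850.8 on Lip-C OBX arrays and above all 6 Lip-O arrays. Its change after OBX in Lip-C mice was -0.62 ± 0.21 (adjusted p = 0.0676) and its difference with Lip-C in sham mice 0.49 ± 0.21 (adjusted p = 0.219), neither of which passed.

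Several probe sets at the upper end of the signal range moved together across arrays. Cbr2, Cyp2f2 and Cyp2g1, and the shared probe sets of Cyp2a5 with Cyp2a4 and of Ugt2a2 with Ugt2a1, had their 5 highest signals each on the 3 Lip-C OBX arrays, Lip-O OBX replicate 3 and Lip-O sham replicate 3. Cbr2, for instance, had 21883.1, 22755.4 and 22571.2 on Lip-C OBX arrays and 19071.3, 19685.5 and 18755.4 on Lip-C sham arrays. Sult1c1 had 4 of its 5 highest signals on those arrays. Gpx6, also at the upper end, did not follow them on Lip-O sham replicate 3, where it had 16316 within a range of 16278.4 to 23361.2. The highest signal of any probe set was 29062 to 31025 on those 5 arrays and 24114 to 26321 on the others. After OBX in Lip-C mice Cbr2 changed by 0.22, Sult1c1 by 0.21, Cyp2f2 by 0.23 and Cyp2g1 by 0.20, none of which passed. With quantile normalization, which gives every array the same distribution, the changes were 0.05, 0.02, 0.06 and 0.06. How fully changes are recorded at such high signals was not tested.

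Related genes outside the 46 were examined to place these values. Of 17 transporters of drugs and conjugates tested, 3 rose and 2 fell after OBX in Lip-C mice, 29.4% against the background of 19.2%, and 9 rose and 1 fell in Lip-O mice, 58.8% against 19.6%. Slc22a5, a carnitine and cation transporter, rose by 0.48 ± 0.10 in Lip-C mice (adjusted p = 0.0105) and by 0.82 ± 0.10 in Lip-O mice (adjusted p = 0.00114). Abcc3, which exports glucuronides, rose by 0.45 ± 0.11 in Lip-C mice (adjusted p = 0.0206) and by 0.82 ± 0.11 in Lip-O mice (adjusted p = 0.00151). Slc47a1, a cation antiporter, rose by 0.79 ± 0.23 in Lip-C mice (adjusted p = 0.0383) and by 1.02 ± 0.23 in Lip-O mice (adjusted p = 0.0129). Abcc1, which exports glutathione conjugates, fell by 0.49 in Lip-C mice (adjusted p = 0.00445) and by 0.41 in Lip-O mice (adjusted p = 0.00375).

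Of 37 further phase I genes tested, 4 rose and 3 fell after OBX in Lip-C mice, 18.9% against the background of 19.2%, and 12 rose and 0 fell in Lip-O mice, 32.4% against 19.6%. Cyp1a1, the classic target of the aryl hydrocarbon receptor, had signals of 3233.8, 2546.3 and 3960.9 on Lip-O OBX arrays and 1551.8, 1191 and 1275.1 on Lip-O sham arrays, a rise of 1.25 ± 0.23 (adjusted p = 0.00524). It was also higher in Lip-C sham than in Lip-O sham mice, by 1.15 ± 0.23 (adjusted p = 0.0358). Xdh, xanthine dehydrogenase, rose by 1.07 ± 0.14 after OBX in Lip-O mice (adjusted p = 0.00151) and was 0.68 ± 0.14 higher with Lip-C in sham mice (adjusted p = 0.0393). The Lip-O sham arrays are the common lower side of both comparisons for Cyp1a1 and Xdh. Aldh1a7, an aldehyde dehydrogenase, was lower with Lip-C in OBX mice (log2 change -0.54, adjusted p = 0.0243) and in sham mice (log2 change -0.64, adjusted p = 0.0136).

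Of 26 further phase II genes, 2 rose and 1 fell after OBX in Lip-C mice, 11.5% against the background of 19.2%, and 7 rose and 2 fell in Lip-O mice, 34.6% against 19.6%. Sult1b1, a thyroid hormone sulfotransferase, rose by 0.68 ± 0.14 in Lip-C mice (adjusted p = 0.0114), and Sult1e1, the estrogen sulfotransferase, by 0.58 ± 0.12 in Lip-O mice (adjusted p = 0.00996). Gsto2 had mean signals of 60.1 in Lip-O OBX mice, below the 40th percentile, and 123.9 in Lip-O sham mice.

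Of 21 regulators of such genes tested, 2 rose after OBX in Lip-C mice, 9.52% against the background of 19.2%, and 4 rose and 1 fell in Lip-O mice, 23.8% against 19.6%. Ahr, the aryl hydrocarbon receptor, changed by -0.10 in Lip-C mice (adjusted p = 0.557) and by 0.09 in Lip-O mice (adjusted p = 0.635). Nfe2l2, which encodes Nrf2, had a change of -0.10 after OBX in Lip-C mice (adjusted p = 0.552) and fell by 0.38 in Lip-O mice (adjusted p = 0.0375). Nqo1, a quinone reductase and common Nrf2 target, fell by 0.79 in Lip-C mice (adjusted p = 0.0493) and changed by -0.32 in Lip-O mice (adjusted p = 0.395). Nfia, a nuclear factor I gene, rose by 0.61 ± 0.18 in Lip-O mice (adjusted p = 0.0345). Transcript levels of these factors do not measure their activity.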

How the data were processed

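Expression was measured on 12 one-colour arrays, grouped by the sample titles into 4 groups of 3. The deposited values are a linear intensity per probe set for 45101 probe sets, which the authors had scaled so that the mean after trimming 2% was 500 on every array. Per the labels' protocols, the arrays were hybridised with biotin-labelled cRNA made from total RNA, and the sources used here do not say how probes were summarised. Array medians ran from 117.4 to 134.1, and the number of arrays limits the precision.

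The 46 enzymes and the comparison lists were chosen with earlier results of these data known. Probe sets were matched by symbol, alias or gene identifier to the platform annotation, in which 34945 probe sets name 1 gene, 932 several and 9160 none, which left 70 for the enzymes. A probe set was kept (28986) if on 3 or more arrays it lay above that array's 40th percentile, and the one with the highest mean stood for its gene (13628 genes). Below that percentile, group signals are printed instead of changes.

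The 4 group means were fitted in 1 model to log2(signal + 16) with limma 3.58.1 (R 4.3.3; 8 degrees of freedom from residuals, 2.56 from moderation), and two-sided tests in 7 comparisons were adjusted over all genes by the Benjamini-Hochberg method. A fold on this scale understates changes of dim genes. The p-values measure the spread between these samples. An exact permutation test of 3 against 3 arrays cannot go below p = 0.1, so none is given. Alternatives were pseudocounts of 1 and 64, no filter, quantile normalization, the mean of probe sets, every probe set on its own, the compared groups alone, a replicate block and leaving out each array. A fit with neither Lip-O OBX replicate 1 nor 2 was chosen after seeing the data. All 42 enzymes tested are named by role. From the other lists, genes were named from up to 6 with the largest called changes in a comparison, beside Ahr, Nfe2l2, Nqo1, Omp, Cd68, Alb, Krt18 and Sox9, and 2 macrophage transcripts were named after their values were seen. Matching sequences came from RefSeq, assembly GRCm38.p6.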

Additional observations from a re-analysis of the deposited data

Results flagged for a closer look

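Cyp2s1 was the single enzyme whose OBX and sham arrays did not overlap with either liposome while the directions were opposite. Its signals were 958.2, 850 and 803.4 on Lip-C OBX arrays against 707.4, 733.3 and 745.8 on Lip-C sham arrays, and 637.5, 606.4 and 511 on Lip-O OBX arrays against 663.9, 668.1 and 732.3 on Lip-O sham arrays. The OBX change was 0.25 ± 0.10 in Lip-C mice and -0.23 ± 0.10 in Lip-O mice (SE). The interaction tested this difference and gave 0.48 ± 0.14, with an adjusted p of 0.133 from limma, so it did not pass. The pattern of opposite directions without overlap was not counted over all genes, so these values do not show if it is unusual. Groups of 3 arrays were not examined for outlying samples.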

How the results depend on the processing

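Across the 7 comparisons, 36 of 294 enzyme results were called, 9 of them under every alternative, and 234 were called under none. The count for OBX in Lip-O mice was 16 and ran from 7 to 19 when each array was left out, and it was 0 with neither Lip-O OBX replicate 1 nor 2, where fewer arrays remain. The log2 change of Sult1d1, which was below 0 and not called in the main fit of that comparison, turned to 0.018 there. The count for OBX in Lip-C mice was 2, ran from 1 to 4 when each array was left out and was 4 with the replicate block, which added Sult1a1 (adjusted p = 0.0406) and Sult1d1 (adjusted p = 0.0483). Same-numbered arrays of different groups deviated from their group means together at r = -0.03 to 0.33 (median 0.13, over 0.1 in 10 of 18 pairs). Other numbers had a median of -0.09. The 3 deviations of a group sum to 0, so the values for other numbers follow in part from those for the same number. Of 36 array and group combinations, 24 correlated best with their own number, with each pair of groups counted from both sides. For OBX and sham arrays of Lip-O mice all 3 pairs were above 0.1 (0.31, 0.28 and 0.14), and the count there was 16 with the block as well. These values are a hint from the data that the numbers mark pairs, which the labels do not state. For Lip-C in OBX mice the 1 call, Cyp2s1, gave way to 0 without the filter, with every probe set tested on its own, with the replicate block, with the compared groups alone, without each array in turn and without both Lip-O OBX arrays. For the Lip-C average the 1 call became 0 with a pseudocount of 1, without the filter, with quantile normalization, with the replicate block, without each array and without both arrays, and 2 with a pseudocount of 64 or the mean of probe sets. The interaction count of 0 ran from 0 to 1 when each array was left out. The count for Lip-C in sham mice stayed at 0, and that for the OBX average ran from 13 to 17 when each array was left out. The cause of these shifts was not tested.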
